A study of Mus musculus with 24 samples.

Results

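The loss of Fancg was examined in undisturbed LSK cells, the sorted mouse bone marrow fraction that lacks lineage markers, carries Sca-1 and Kit, and holds the blood stem cells and earliest progenitors. Polyadenylated RNA was sequenced from FancgKO mice given PBS, in 4 libraries (replicates 2, 4, 6 and 7), and from WT mice given PBS, in 4 libraries (replicates 2, 6, 7 and 8). These 8 libraries, of 24 in the series, were chosen by genotype and treatment alone, and 12628 of 26267 genes were compared, those with a normalised count of at least 10 in at least 2 of the 24 libraries. The other 16 libraries came from FancgKO and WT mice given poly(I:C) and from FancgKO_Mdm4Tg and Mdm4Tg mice, which carry an Mdm4 transgene, given PBS or poly(I:C). They entered the same model, so the gene filter and the estimate of spread behind every p-value also draw on them. Comparisons among them alone show whether a difference was also present where none of the 8 libraries was compared. The labels describe neither the knockout allele, the age or strain of the mice, nor whether a library held 1 animal or several, so the p-values speak to the spread among these libraries alone, which may be technical.

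The FANCG protein belongs to the Fanconi anaemia core complex, the ubiquitin ligase assembly that marks FANCD2 and FANCI at DNA crosslinks and so opens their repair. Its loss in humans causes Fanconi anaemia, in which the bone marrow fails as stem cells are lost, and unrepaired damage is known to activate the transcription factor p53. The p53 protein raises genes of cell death, of cell cycle arrest and its own feedback, and of repair and metabolism, and the results below follow these roles before turning to lineage, cell division and chromosome.

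The 8 libraries held 807686 to 1728839 reads in FancgKO and 1281142 to 4801746 reads in WT, so that 1 read was worth 1.46 to 3.27 normalised counts in FancgKO and 0.496 to 1.91 in WT. Kit stood at 1762 to 1895 in FancgKO and 1912 to 2344 in WT, and Cd34 at 1716 to 1993 in FancgKO and 1789 to 2457 in WT. Ly6a, which encodes Sca-1, was low throughout, at 11.7 to 34.5 in FancgKO and 24.8 to 42.6 in WT. Of 13 mature neutrophil markers in the table, 6 (Ngp, Ltf, Mmp9, Fpr1, Cd177 and Ly6g) were at 0 in all 8 libraries. Of 27 erythroid genes, 3 (Hba-a2, Slc4a1 and Alas2) were at 0, and the list summed to 1585 to 2509 in FancgKO and 1741 to 2173 in WT. The 16 monocyte, macrophage and dendritic cell markers summed to 356 to 827 in FancgKO and 198 to 831 in WT. The 10 mature B cell markers summed to 35.1 to 39.1 in FancgKO and 33.5 to 72.5 in WT. In these bulk samples fewer cells of a type and less RNA per cell cannot be told apart.

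The FancgKO libraries differed from the WT libraries in sex-linked transcripts. Xist, the RNA of the inactive X chromosome, stood at 1.57, 0, 7800 and 18010 in FancgKO replicates 2, 4, 6 and 7, and at 0 to 24.8 in WT. The Y-linked gene Ddx3y stood at 539, 529, 219 and 6.53 in the same FancgKO libraries and at 390 to 553 in WT. FancgKO replicate 6 therefore carried both Xist and Y-linked transcripts, and replicate 7 carried Xist with almost none of the Y-linked ones. Replicates 6 and 7 are also the FancgKO libraries whose names lack the ending _2, while WT had 2 libraries with the ending (replicates 2 and 8) and 2 without it (replicates 6 and 7). Differences that moved by over 1.5 times without FancgKO replicates 6 and 7 are given below also without them (called the Xist-high libraries), which leaves only FancgKO libraries with the ending, and the cell death, lineage and stem cell lists are given within each ending.

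No gene passed the test between FancgKO and WT. With limma, 0 of 12628 genes (0%) had an adjusted p under 0.05, and 497 (3.94%) had an unadjusted p under 0.05, of which 201 (1.59%) were higher and 296 (2.34%) lower in FancgKO. On the same reads edgeR called 0 genes, with 369 at an unadjusted p under 0.05, and DESeq2 called 0, with 287. Among the genes named here, the smallest limma adjusted p was 0.477, for Plag1 and Eda2r. It was 0.551 for Smim8, 0.583 for Selp and Pvt1, and 0.999 for every other gene named from here on. No limma adjusted p of the whole comparison was below 0.477, and genes not named can share these values or fall between them. Differences between FancgKO and WT below are therefore values that did not pass over all genes, except where the replicate block is named. The groups did not overlap for 95 genes that were higher in FancgKO (0.752%) and for 136 that were lower (1.08%). The median gene differed by -0.01 on the log2 scale of the normalised count plus 1, with 48.7% of genes positive, and the median standard error of a difference was 0.24.

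The replicate numbers 2, 6 and 7 were treated as pairs. Same-numbered FancgKO and WT libraries correlated, after removal of group means, at 0.349, 0.528 and 0.218. No value for differently numbered libraries is given beside these. Each number falls within 1 name ending, so number and ending cannot be told apart by these correlations. With the number as a block limma called 4 genes (0.0317%), with 1339 (10.6%) at an unadjusted p under 0.05, of which 572 (4.53%) were higher and 767 (6.07%) lower in FancgKO. Pvt1 rose by 1.74 ± 0.27 (SE) and Selp by 1.41 ± 0.25, while Smim8 fell by 2.16 ± 0.36 and Plekhg2 fell by 1.42 ± 0.24 on the log2 scale (limma adjusted p = 0.0223, 0.0433, 0.0223 and 0.0223). That block gives FancgKO replicate 4, the only library with its number, no weight. The 4 calls became 9 without FancgKO replicate 2, 12 without FancgKO replicate 6 and 1 without WT replicate 8, and they became 0 without FancgKO replicate 7 or without WT replicate 2, 6 or 7.

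Selp (chr1:164115264-164150026 of mm10) encodes P-selectin, the adhesion molecule of platelets and endothelium that megakaryocytes also make. Its normalised count was 64.2, 70.8, 112 and 121 in FancgKO replicates 2, 4, 6 and 7, against 24.8, 36.3, 48.5 and 27.7 in WT replicates 2, 6, 7 and 8. Every FancgKO library was above every WT library, with means of 92.1 ± 28.7 in FancgKO and 34.3 ± 10.6 in WT (SD, n = 4 each). The log2 difference was 1.39 ± 0.33 in the fit without the block, 1.00 without the Xist-high libraries, and 1.34, 1.61 and 1.30 in the pairs 2, 6 and 7. The megakaryocyte list that holds Selp had a median of 0.22, with 15 of 24 genes positive, and of -0.29 without the Xist-high libraries, so its sign was not that of Selp in every comparison.

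Pvt1 (chr15:62037986-62378096) is a long noncoding RNA gene beside Myc. It stood at 40.7, 13.0, 39.4 and 35.9 in FancgKO replicates 2, 4, 6 and 7, against 7.63, 16.8, 8.36 and 13.4 in WT replicates 2, 6, 7 and 8. The groups overlapped only through FancgKO replicate 4, the library that the block leaves without weight. The difference was 1.35 ± 0.33 without the block and 1.01 without the Xist-high libraries. Its neighbour Myc, the growth-promoting transcription factor, differed by 0.26 ± 0.16, with overlapping groups of 642 to 951 in FancgKO and 498 to 773 in WT, and by 0.076 without the Xist-high libraries.

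Smim8 (chr4:34768664-34778423), which encodes a small membrane protein, had 9.40, 9.31, 1.46 and 3.27 normalised counts in FancgKO replicates 2, 4, 6 and 7, against 24.8, 21.2, 20.1 and 15.9 in WT replicates 2, 6, 7 and 8. The groups did not overlap, but the FancgKO values rest on 6, 5, 1 and 1 reads. Its difference was -1.88 ± 0.43 without the block and -1.04 without the Xist-high libraries. Plekhg2 (chr7:28359604-28372599) stood at 7.30 to 18.6 in FancgKO and 19.8 to 33.5 in WT, with a difference of -1.09 ± 0.33 without the block.

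**Figure D1:**
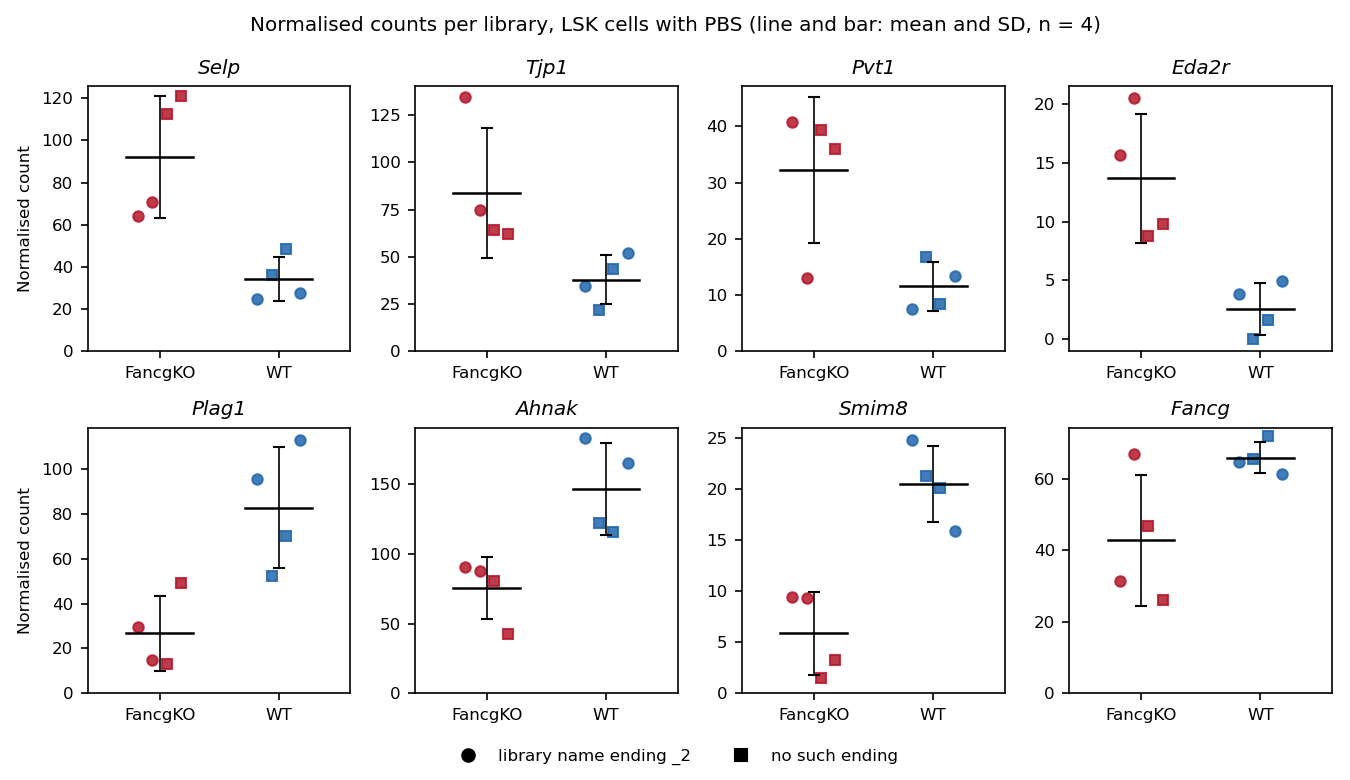
Normalised count (y axis) of 8 genes in each FancgKO library (red) and each WT library (blue) given PBS; circles are libraries whose names end in _2, squares those without that ending, and the black line and bar give mean and SD of 4 libraries. The groups are separate for Selp, Tjp1, Eda2r, Plag1, Ahnak and Smim8, while 1 FancgKO library lies among the WT values of Pvt1 and of Fancg.

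Fancg itself (chr4:43002343-43010506) was counted at 31.3, 67.1, 46.7 and 26.1 in FancgKO replicates 2, 4, 6 and 7, against 64.8, 65.5, 71.9 and 61.5 in WT replicates 2, 6, 7 and 8. FancgKO replicate 4 lay within the WT range and the other FancgKO libraries lay below it. The difference was -0.70 ± 0.23 (SE), and -0.25 ± 0.17 in the other 16 libraries. The deposited value is a single total for the gene and the labels do not describe the allele, so the value does not check the genotype. Whether the reads in FancgKO came from a part of the gene that the allele leaves in place was not tested.

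Plag1 and Tjp1 are the genes that were also called for Fancg loss in the other libraries. Plag1 (chr4:3900996-3938423), a zinc-finger transcription factor gene that is an oncogene in salivary gland tumours, stood at 29.8, 14.9, 13.2 and 49.0 in FancgKO replicates 2, 4, 6 and 7, against 95.4, 52.2, 70.2 and 113 in WT replicates 2, 6, 7 and 8. Its highest FancgKO library lay just below its lowest WT library, with means of 26.7 ± 16.6 in FancgKO and 82.7 ± 26.9 in WT (SD, n = 4 each). The difference was -1.73 ± 0.38, and -1.86 without the Xist-high libraries.

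Tjp1 (chr7:65296165-65527781), the gene of the junction scaffold ZO-1, stood at 135, 74.5, 64.3 and 62.1 in FancgKO replicates 2, 4, 6 and 7, against 34.3, 22.1, 43.5 and 52.0 in WT replicates 2, 6, 7 and 8. All FancgKO libraries were above all WT libraries, with replicate 2 the highest, and means of 83.9 ± 34.3 in FancgKO and 38.0 ± 12.8 in WT (SD, n = 4 each). The difference was 1.11 ± 0.30, and 1.44 without the Xist-high libraries.

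Fancg loss was then measured in the other 16 libraries, as the mean of FancgKO against WT with poly(I:C), FancgKO_Mdm4Tg against Mdm4Tg with PBS and FancgKO_Mdm4Tg against Mdm4Tg with poly(I:C). Xist was uneven here too. With poly(I:C) it stood at 13770, 362.5 and 0 in FancgKO replicates 6, 7 and 8, against 5943, 20210 and 0.31 in WT replicates 6, 7 and 8. In the libraries with the transgene it stood at 0 to 3.93. Of 12628 genes, limma called 2 (0.0158%), with 132 (1.05%) at an unadjusted p under 0.05. Tjp1 rose by 1.26 ± 0.21 and Plag1 fell by 1.65 ± 0.27 (limma adjusted p = 0.0397 for both). The 3 single differences were 0.99, 1.84 and 0.95 for Tjp1 and -1.49, -2.16 and -1.30 for Plag1. Over all 24 libraries Tjp1 stood at 62.1 to 135 in the 12 libraries with Fancg loss and at 17.9 to 52.0 in the 12 without it. Plag1 stood at 8.49 to 49.0 with Fancg loss and 34.4 to 167 without it, so that the groups overlapped across treatments. Both genes were already known from earlier results of these data. The count of 2 became 0 without WT replicate 2 or without WT replicate 7, and 1 without FancgKO replicate 4 or without FancgKO replicate 6, libraries that enter this contrast only through the estimate of the spread that all groups share.

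Between the 2 sets of libraries, 29 genes had an unadjusted p under 0.05 in both, which is 5.84% of the 497 and 22% of the 132. All 29 had the same direction in both sets, 10 higher and 19 lower. Over the 497 genes 63.4% had the same sign in the other libraries, against 54.5% of all genes. Besides Plag1, Tjp1, Selp, Pvt1, Smim8 and Eda2r they included Ahnak (chr19:8989284-9076914), which encodes a very large scaffold protein. Ahnak stood at 90.8, 87.6, 80.3 and 42.5 in FancgKO replicates 2, 4, 6 and 7, against 183, 122, 115 and 165 in WT replicates 2, 6, 7 and 8, without overlap. Its difference was -0.98 ± 0.27 in the 8 libraries and -0.73 ± 0.19 in the other 16. Of the genes called with the replicate block, Selp differed by 0.51, Pvt1 by 0.58 and Smim8 by -0.79 in the other 16 libraries. Without the block they differed by 1.39, 1.35 and -1.88 in the 8. Plekhg2 was not among the 29. In the other 16 libraries it overlapped, at 12.9 to 36.2 with Fancg loss and 13.2 to 31.4 without it. The difference between the 2 effects of Fancg loss was called by limma for 0 genes (0%), with 248 (1.96%) at an unadjusted p under 0.05.

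**Figure D2:**
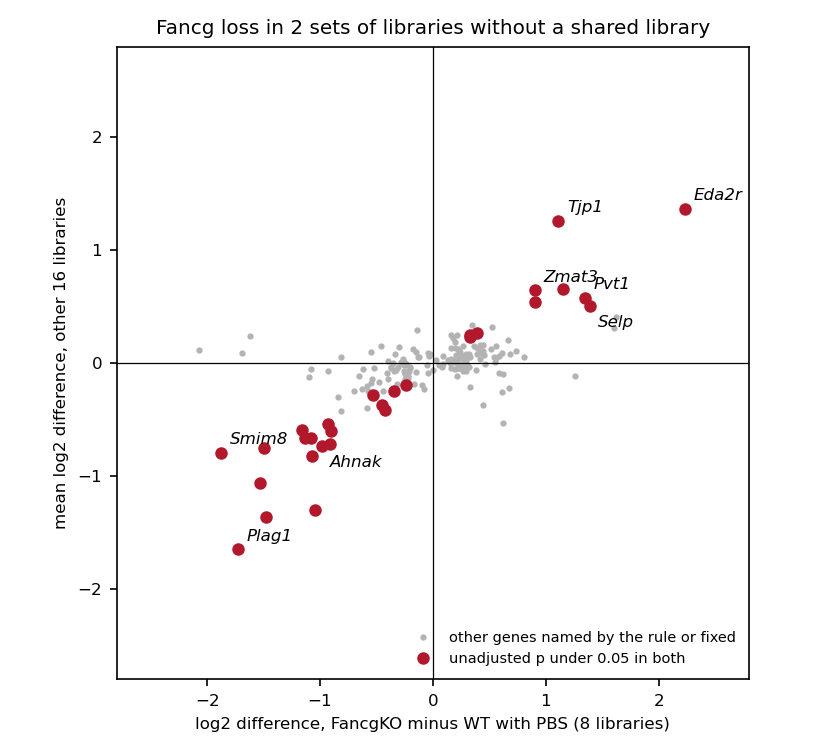
Log2 difference of FancgKO minus WT in the 8 libraries with PBS (x axis) against the mean log2 difference of Fancg loss in the other 16 libraries (y axis), for genes named by rule (grey) and the 29 genes at an unadjusted p under 0.05 in both (red). The red points lie in the lower left and upper right corners only, with Plag1 at -1.73 and -1.65 and Tjp1 at 1.11 and 1.26.

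Among p53 targets, the genes of cell death had mostly higher values in FancgKO, while the medians of the other roles lay around 0. Of 14 cell death targets kept, 5 had an unadjusted p under 0.05 with higher values in FancgKO and 0 with lower ones, against 1.59% and 2.34% of all genes. Their median difference was 0.34 with 13 positive, against -0.01 for all genes. In the other 16 libraries the median was 0.23, also with 13 positive. Of 16 targets of arrest and feedback, 0 had an unadjusted p under 0.05 and the median was 0.02, with 9 positive. Of 15 targets of repair and metabolism the count was also 0 and the median was -0.01, with 7 positive. Without the Xist-high libraries the arrest and repair medians were -0.08 and -0.07, with 6 positive in each. The list median for cell death was 0.24 among libraries with the ending _2, 0.42 among those without it and 0.27 without the Xist-high libraries, and it ran from 0.26 to 0.46 when single libraries were left out.

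Eda2r, the receptor gene for ectodysplasin A2 (chrX:97333840-97377216), had 15.7, 20.5, 8.76 and 9.80 normalised counts in FancgKO replicates 2, 4, 6 and 7, against 3.81, 0, 1.67 and 4.96 in WT replicates 2, 6, 7 and 8. The groups did not overlap, although these are 10, 11, 6 and 3 reads in FancgKO and 2, 0, 1 and 10 reads in WT. The difference was 2.24 ± 0.50, and 2.68 without the Xist-high libraries, whose values were the lowest of the FancgKO group. The difference in the other 16 libraries was 1.37 ± 0.36.

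The death receptor gene Tnfrsf10b (chr14:69767472-69784411) stood at 14.1, 11.2, 19.0 and 32.7 in FancgKO replicates 2, 4, 6 and 7, against 1.91, 8.85, 1.67 and 16.8 in WT replicates 2, 6, 7 and 8. Pmaip1, which encodes the BCL2-family protein Noxa, stood at 6.27, 20.5, 20.4 and 16.3 in FancgKO replicates 2, 4, 6 and 7, against 1.91, 7.96, 3.34 and 4.96 in WT replicates 2, 6, 7 and 8. In both genes 1 WT library reached into the FancgKO range, and the reads were 4 to 14 per FancgKO library. The differences were 1.62 ± 0.50 for Tnfrsf10b and 1.61 ± 0.45 for Pmaip1, against 0.41 ± 0.36 and 0.31 ± 0.32 in the other 16 libraries. Without the Xist-high libraries they were 1.16 and 1.29.

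Zmat3 (chr3:32334792-32366014), an RNA-binding protein gene that acts as a p53-dependent tumour suppressor in mice, had 29.4 to 59.6 normalised counts in FancgKO and 12.4 to 34.3 in WT, with a difference of 0.91 ± 0.34 and of 0.65 ± 0.24 in the other 16 libraries. Casp1, the inflammatory caspase gene, stood at 87.6 to 111 in FancgKO and 57.2 to 98.2 in WT (0.42 ± 0.16, and 0.28 without the Xist-high libraries). Apaf1, which encodes the apoptosome scaffold, was the best counted of these genes, at 296 to 329 in FancgKO and 248 to 285 in WT. Its groups did not overlap, and its difference was small at 0.20 ± 0.14.

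**Figure D3:**
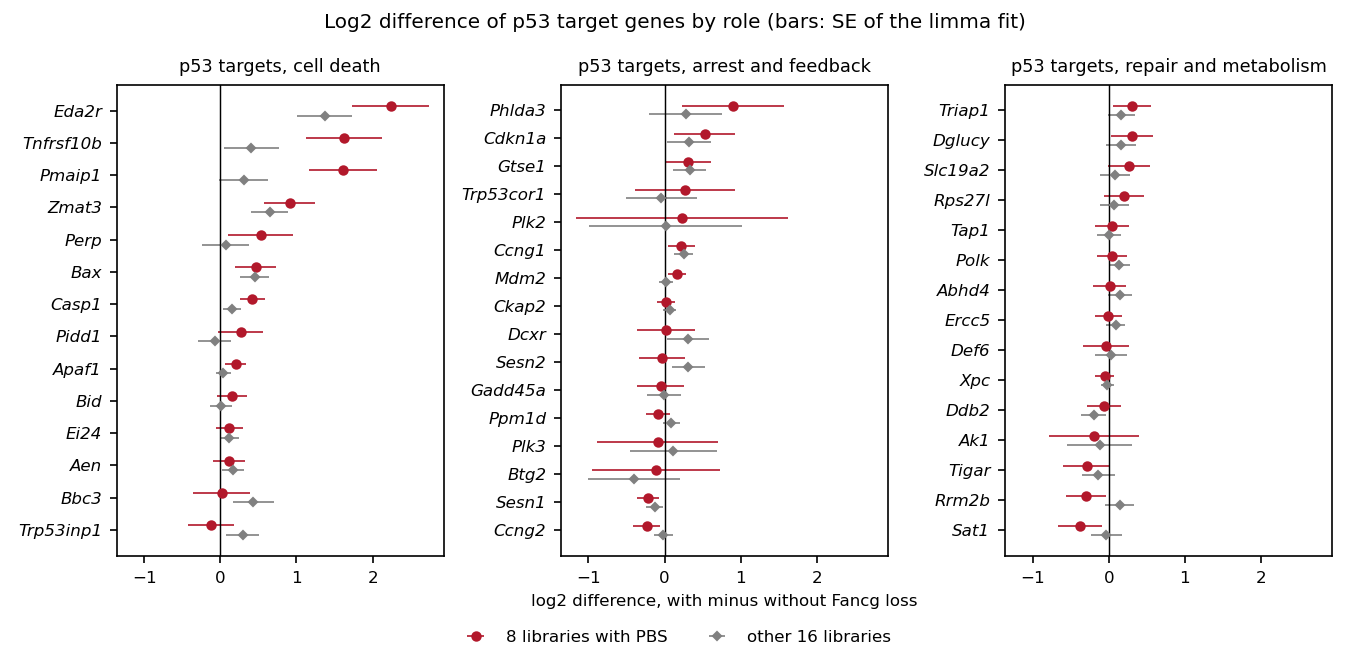
Log2 difference (x axis) of each kept p53 target, in FancgKO against WT with PBS (red circles) and as the mean effect of Fancg loss in the other 16 libraries (grey diamonds), with bars for the SE of the limma fit. Cell death targets run from -0.13 to 2.24 (Eda2r, on 3 to 11 reads per FancgKO library), with a median of 0.34. Arrest and feedback targets run from -0.24 to 0.90 and repair targets from -0.37 to 0.31, with medians of 0.02 and -0.01.

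The p53 element near the gene start was looked for in the targets of each role. The p53 consensus site, a pair of decamers with no spacer, searched on both strands since the consensus reads the same on each, was found with at most 1 mismatch in 29 of 32851 RefSeq windows (0.0883%) from 250 bases before to 50 after a gene start. Windows were held for 15 of the 16 arrest and feedback genes, of which 3 contained such a site, and for 11 repair and metabolism genes, of which 1 did. They were held for 9 of the 14 cell death genes, of which 0 did. With up to 3 mismatches, which 6.29% of all windows allowed, a site was found in 3 of 9 cell death genes, 6 of 15 arrest and feedback genes and 3 of 11 repair and metabolism genes. The 4 sites are shown because they lie closest to the consensus among the listed targets, in genes that all had an unadjusted p above 0.05. Capitals mark the site, the sequences are from RefSeq (GRCm38.p6) and each runs 5′ to 3′ on the strand of its gene.
Cdkn1a, chr17:29090923-29090952, plus strand: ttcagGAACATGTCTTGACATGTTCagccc
Ccng1, chr11:40755457-40755486, minus strand: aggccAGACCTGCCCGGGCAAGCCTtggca
Gtse1, chr15:85859940-85859969, plus strand: accggGAGCAAGTTGGGGCTTGCCTctgac
Rps27l, chr9:66946291-66946320, plus strand: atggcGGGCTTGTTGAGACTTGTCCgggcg
A match is a description of the letters in the window, and binding was not measured here.

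The levels of these 4 genes overlapped between the groups. Cdkn1a, the inhibitor of cyclin-dependent kinases that halts the cycle, stood at 23.5, 57.8, 54.0 and 26.1 in FancgKO replicates 2, 4, 6 and 7, against 26.7, 38.0, 43.5 and 9.42 in WT replicates 2, 6, 7 and 8. Its difference was 0.53 ± 0.41, and 0.074 without WT replicate 8. Ccng1, the cyclin G1 gene, stood at 300.5 to 360 in FancgKO and 236 to 326 in WT (0.22 ± 0.18). Gtse1, a regulator of p53 in G2 phase, stood at 26.6 to 87.6 in FancgKO and 31.7 to 68.1 in WT (0.31 ± 0.31), and its difference was -0.38 without the Xist-high libraries. Rps27l, a ribosomal protein paralogue, stood at 141 to 225 in FancgKO and 142 to 210 in WT (0.20 ± 0.26, and -0.0089 without the Xist-high libraries). Mdm2, the ubiquitin ligase that degrades p53, stood at 242 to 259 in FancgKO and 190 to 248 in WT (0.16 ± 0.12). Sesn1, a stress-induced inhibitor of mTORC1, was on the other side at -0.22 ± 0.15, and at -0.03 without the Xist-high libraries. Mdm4, the partner of Mdm2 that the transgene of other groups supplies, stood at 895 to 1293 in FancgKO and 758 to 955 in WT (0.24 ± 0.13, and 0.44 without the Xist-high libraries).

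The repair pathway around Fancg showed little difference. Of the 13 other core complex genes, 0 had an unadjusted p under 0.05, with 10 positive and a median of 0.09. That median was 0.02 without the Xist-high libraries, with 8 positive. Fancc, a core subunit, stood at 83.0 to 88.2 in FancgKO and 57.5 to 92.0 in WT (0.27 ± 0.19), and Faap20, which anchors the complex to ubiquitin, at 31.3 to 55.5 in FancgKO and 22.9 to 42.5 in WT (0.40 ± 0.26). Without the Xist-high libraries the difference of Faap20 was 0.019. Of 22 genes of the FANCD2-FANCI complex and the steps after it, 13 were positive, with a median of 0.06. At an unadjusted p under 0.05, 1 was higher and 0 lower, against 1.59% and 2.34% of all genes. That gene was Rfwd3, a ubiquitin ligase of crosslink repair, at 224 to 268 in FancgKO and 101 to 221 in WT (0.45 ± 0.22), where WT replicate 8 lay far below the other WT libraries. Without WT replicate 8 its difference was 0.18.

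Damage sensing and checkpoint genes were the only list of the 36 whose summed level did not overlap between the groups, and the gap was narrow. The 25 genes summed to 6971 to 7201 in FancgKO and 6529 to 6949 in WT. Of them 19 were positive, with a median of 0.07, and 0 had an unadjusted p under 0.05. Among single genes 0.752% were higher and 1.08% lower in FancgKO without overlap. Beside that share, 1 such list of 36 does not set damage sensing apart. Timeless, which guards the replication fork, had the smallest p of the list at 132 to 203 in FancgKO and 116 to 185 in WT (0.30 ± 0.19), and its difference was 0.10 without the Xist-high libraries.

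Genes of cell division lay slightly higher in FancgKO. Of 40 mitosis genes 34 were positive, with a median of 0.13. Of them 1 had an unadjusted p under 0.05 with higher values, against 1.59% of all genes. Anln, the anillin gene of the contractile ring, stood at 428, 387, 447 and 428 in FancgKO replicates 2, 4, 6 and 7, against 318, 346, 343 and 336 in WT replicates 2, 6, 7 and 8. The groups were apart and tight, with a difference of 0.33 ± 0.12. Cenpe, the kinetochore motor gene, also did not overlap, at 387 to 428 in FancgKO and 341 to 374 in WT (0.20 ± 0.10). Of 40 S phase genes 31 were positive, with a median of 0.11, and 2 had an unadjusted p under 0.05 with higher values, against the same 1.59%. One was Mcm10, a replication initiation factor, at 149 to 207 in FancgKO and 102 to 176 in WT (0.39 ± 0.17, and 0.21 without the Xist-high libraries). The medians in the other 16 libraries were 0.09 for mitosis and 0.06 for S phase. Without the Xist-high libraries they were 0.05 and -0.02, with 25 and 19 positive.

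Of the 12 higher genes with the smallest p-values and a mean of at least 50, 9 did not overlap between groups, Selp and Tjp1 among them. The 12 were chosen by p in these same libraries, so this separation follows largely from the choice. Over all genes 0.752% were higher in FancgKO without overlap. Kif24 (chr4:41390745-41464887), a kinesin of the centriole, stood at 121 to 151 in FancgKO and 91.5 to 112 in WT (0.42 ± 0.12). Nsl1 (chr1:191063012-191086474), a kinetochore subunit, stood at 91.5 to 114 in FancgKO and 53.4 to 85.8 in WT (0.56 ± 0.18). Ssx2ip (chr3:146404642-146440144), a centrosome protein, stood at 68.6 to 86.2 in FancgKO and 45.8 to 64.4 in WT (0.46 ± 0.16). Rad54l (chr4:116094264-116123690), a motor protein of homologous recombination, overlapped at 162 to 239 in FancgKO and 122 to 166 in WT (0.42 ± 0.14), and its difference was 0.21 without the Xist-high libraries.

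Hk2, the hexokinase that starts glycolysis, stood at 180 to 218 in FancgKO and 127 to 166 in WT (0.42 ± 0.14). Xxylt1, a xylosyltransferase that modifies Notch receptors, was tightly grouped at 91.5 to 101 in FancgKO and 61.9 to 80.5 in WT (0.42 ± 0.15). Noc4l, a factor of small ribosomal subunit assembly, overlapped at 68.9 to 112 in FancgKO and 43.9 to 90.2 in WT (0.61 ± 0.20, and 0.37 without the Xist-high libraries). C530008M17Rik differed by 0.81 ± 0.24, and by 0.51 without WT replicate 2. The uncharacterised gene 2310022A10Rik differed by 0.59 ± 0.19, and by 0.31 without the Xist-high libraries. The entry for ENSMUSG00000109865, which shares the symbol Hspa14 with another entry so that its counts are uncertain, stood at 185 to 222 in FancgKO and 130 to 174 in WT (0.38 ± 0.13). The differences of these higher genes other than Selp and Tjp1 ran from -0.09 (2310022A10Rik) to 0.16 (Kif24) in the other 16 libraries.

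Of the 12 lower genes with the smallest p-values, which serve many different functions, 9 did not overlap between groups. This separation too follows largely from the choice by p, and over all genes 1.08% were lower in FancgKO without overlap. Patj (chr4:98395785-98719603), a cell polarity scaffold, stood at 22.9 to 35.4 in FancgKO and 38.0 to 89.6 in WT (-1.08 ± 0.33). Pnrc1 (chr4:33245423-33290163), a nuclear receptor coregulator, stood at 382 to 467 in FancgKO and 509 to 655 in WT (-0.40 ± 0.12). Mkl2 (chr16:13256481-13417529), a coactivator of serum response factor, stood at 88.2 to 132 in FancgKO and 129 to 185 in WT (-0.52 ± 0.15). Lpar6, a receptor for lysophosphatidic acid, stood at 112 to 143 in FancgKO and 157 to 198 in WT (-0.37 ± 0.12).

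Cnksr3, a scaffold of signalling kinases, stood at 36.0 to 48.2 in FancgKO and 57.5 to 70.6 in WT (-0.62 ± 0.19). The zinc-finger genes Zfp46 and Zfp395 differed by -0.54 ± 0.17 and -0.63 ± 0.20. A pair of small nucleolar RNA genes, Gm23639 and Snord17, differed by -0.93 ± 0.25 and -0.82 ± 0.26, and Snord17 had 293 to 706 in FancgKO and 586 to 1305 in WT, with the highest value in WT replicate 2 and a difference of -1.23 without the Xist-high libraries. In the other 16 libraries the differences of these lower genes other than Plag1, Ahnak and Fancg ran from -0.23 (Zfp395) to 0.05 (Snord17).

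Lineage genes were lower for the lymphoid and higher for the myeloid and erythroid fate in FancgKO, and this pattern depended on which libraries were compared. Of 25 lymphoid progenitor genes 23 were negative, with a median of -0.33. Of them 2 had an unadjusted p under 0.05 with lower values, against 2.34% of all genes. Of 28 myeloid progenitor genes 21 were positive, with a median of 0.34. Of them 2 had an unadjusted p under 0.05 with higher values, against 1.59% of all genes. Of 23 erythroid genes 17 were positive, with a median of 0.34 and 1 at that threshold with higher values, against the same 1.59%. The myeloid genes summed to 5768, 7962, 22160 and 11490 in FancgKO replicates 2, 4, 6 and 7, against 5005, 20190, 8176 and 4601 in WT replicates 2, 6, 7 and 8, so replicate 6 was highest in both groups. The 8 kept monocyte, macrophage and dendritic cell markers had a median of 0.32 and were also highest in replicate 6, at 815 in FancgKO and 823 in WT. The 20 immediate early genes, which cells induce quickly on stimulation, summed to 11970 to 15880 in the 4 libraries without the name ending and 1598 to 3161 in the 4 with it. The part of these in the lineage values was not tested. Among libraries with the name ending the lymphoid, myeloid and erythroid medians were -0.28, 0.47 and 0.17. Among those without it they were -0.35, 0.29 and 0.55, so each sign was the same within both kinds of library. In the pairs 2, 6 and 7 the lymphoid medians were -0.44, -0.21 and -0.55, and the myeloid ones 0.23, 0.21 and 0.32. The erythroid medians were -0.18, 0.03 and 1.1, so their sign reversed in pair 2 and the rise lay mainly in pair 7. Without the Xist-high libraries the lymphoid, myeloid and erythroid medians were 0.01, -0.11 and -0.34, with FancgKO libraries of 1 ending only set against WT libraries of both. In the other 16 libraries they were -0.16, 0.01 and -0.04.

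Sox4, a transcription factor of early B cells, stood at 1140, 952, 894 and 947 in FancgKO replicates 2, 4, 6 and 7, against 1318, 1048, 1253 and 1394 in WT replicates 2, 6, 7 and 8. FancgKO replicate 2 alone reached into the WT range, and the difference was -0.35 ± 0.12. Gimap6, a GTPase gene of lymphocytes, did not overlap, at 96.4 to 169 in FancgKO and 201 to 338 in WT (-0.84 ± 0.32). Flt3, the receptor that marks lymphoid-primed progenitors, overlapped at 518 to 1127 in FancgKO and 750 to 1467 in WT (-0.48 ± 0.29), and its difference was -0.05 without the Xist-high libraries. Satb1, a chromatin organiser of lymphoid fate, stood at 549 to 1178 in FancgKO and 685 to 1356 in WT (-0.45 ± 0.27), with 0.0091 without those libraries. With the replicate block 13 of the 25 genes were lower at an unadjusted p under 0.05, against 6.07% of all genes. With Xist as a covariate 2 were lower, with 12 positive and a median of -0.10.

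On the myeloid side Gfi1, a repressor needed by neutrophil precursors, stood at 65.2 to 95.0 in FancgKO and 40.1 to 75.2 in WT (0.59 ± 0.23). Csf2rb, the shared receptor chain for IL-3 and GM-CSF, stood at 127 to 210 in FancgKO and 80.1 to 211 in WT (0.55 ± 0.24), where WT replicate 6 was the highest. Gata1, the master regulator of red cells and megakaryocytes, stood at 15.7, 33.5, 42.4 and 78.4 in FancgKO replicates 2, 4, 6 and 7, against 5.72, 41.6, 20.1 and 11.4 in WT replicates 2, 6, 7 and 8. FancgKO was above WT in each of the pairs 2, 6 and 7, FancgKO replicate 4 has no pair and lay below WT replicate 6, the difference was 1.18 ± 0.49, and it was 0.54 without the Xist-high libraries.

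Stem cell genes lay somewhat lower in FancgKO. Of 43 kept, 32 were negative, with a median of -0.15. Of them 2 had an unadjusted p under 0.05 with lower values, against 2.34% of all genes. The median was -0.21 among libraries with the name ending, -0.12 among those without it and -0.11 without the Xist-high libraries. In the pairs 2, 6 and 7 it was -0.04, -0.11 and -0.10. In the other 16 libraries it was -0.06, with 16 positive.

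Kit, the receptor used in the sort, stood at 1869, 1895, 1762 and 1842 in FancgKO replicates 2, 4, 6 and 7, against 2157, 1912, 2206 and 2344 in WT replicates 2, 6, 7 and 8. The groups did not overlap, yet the difference was only -0.22 ± 0.12. Hlf, a transcription factor that marks stem cells, varied widely at 317 to 755 in FancgKO and 356 to 1437 in WT (-0.66 ± 0.39). Its difference was -0.17 without the Xist-high libraries and ran from -1.05 to -0.38 when single libraries were left out. Tgfbr2, a receptor for TGF-beta, which restrains stem cell cycling, stood at 137 to 182 in FancgKO and 193 to 244 in WT without overlap (-0.40 ± 0.14). Its value in the other 16 libraries was 0.02 ± 0.10. The 18 kept genes of the TGF-beta list had a median of -0.03, and of -0.10 without the Xist-high libraries.

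**Figure D4:**
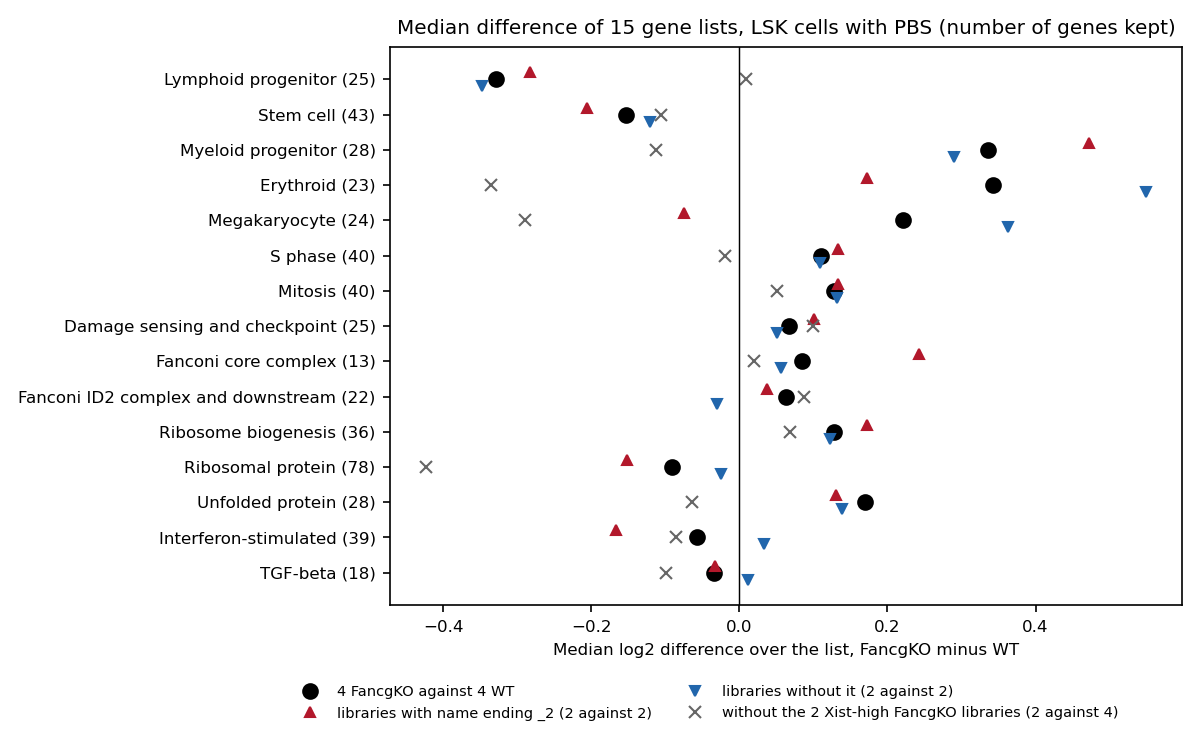
Median log2 difference (x axis) over the kept genes of 15 lists in FancgKO minus WT with PBS, for all 8 libraries (black), within each kind of library name (red and blue triangles) and without the 2 Xist-high FancgKO libraries (crosses). The crosses of the myeloid and erythroid lists lie at -0.11 and -0.34, on the other side of 0 from their black points at 0.34, while mitosis and damage checkpoint lists keep 1 sign throughout.

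Lists of protein synthesis and stress differed in sign. Of 36 ribosome biogenesis genes 31 were positive, with a median of 0.13. Without the Xist-high libraries 21 were positive, with a median of 0.07. Of the 36, 2 had an unadjusted p under 0.05 with higher values, against 1.59% of all genes. Among them was Utp20 of small subunit processing, at 425 to 517 in FancgKO and 362 to 434 in WT (0.28 ± 0.13). Of 78 ribosomal protein genes 66 were negative, with a median of -0.09 and 0 at that threshold, and the median ran from -0.22 to 0.10 when single libraries were left out and was -0.42 without the Xist-high libraries. Of 28 unfolded protein genes 24 were positive, with a median of 0.17 and 0 at that threshold, and the median was -0.06 without the Xist-high libraries. Of 39 interferon-stimulated genes 16 were positive, with a median of -0.06. At that threshold 1 was higher and 1 lower, against 1.59% and 2.34% of all genes. Without the Xist-high libraries 13 were positive, with a median of -0.09.

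By chromosome, the genes near Fancg were compared because a knockout allele can carry linked sequence from its strain of origin. Within 10 Mb of Fancg on chromosome 4, 6 of 105 genes (5.71%) had an unadjusted p under 0.05, 1 higher and 5 lower. Between 10 and 40 Mb 4 of 117 (3.42%) did, beyond 40 Mb 23 of 501 (4.59%), and on the other chromosomes 464 of 11894 (3.9%). The 4 kept genes on each side of Fancg differed by -0.56 to 0.69, with a smallest unadjusted limma p of 0.17. In the 8 libraries chromosome 4 was at 4.56%, below the 6% of chromosome 15 and the 5.28% of the X chromosome. Among the genes with the smallest p-values and a mean of at least 50, 2 of the 12 higher and 5 of the 12 lower ones lie on chromosome 4. Fancg itself is among those 5. Chromosome 4 holds 723 of the 12628 genes kept. With the replicate block the count within 10 Mb was 11 (10.5%) and that on chromosome 4 was 75 (10.4%), where 10.6% of all genes were at that threshold. Without WT replicate 6 the counts were 11 and 53. The share over all genes without that library is not given, so no excess near Fancg can be read from these counts.

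In the other 16 libraries 18 of 723 genes on chromosome 4 (2.49%) had an unadjusted p under 0.05, 3 higher and 15 lower, against 114 of 11894 elsewhere (0.958%), and the next highest chromosome was X at 1.51%. Of the 29 genes at that threshold in both sets of libraries, 5 lie on chromosome 4, namely Plag1, Smim8, Fam219a, Epha7 and Smap2, and all 5 were lower. They were 2 of 105 genes within 10 Mb of Fancg, 2 of 117 between 10 and 40 Mb and 1 of 501 beyond, against 24 of 11894 elsewhere. Fam219a differed by -1.53 in the 8 libraries and -1.06 in the other 16, and Epha7, an ephrin receptor gene, by -0.53 and -0.28. The part of linked sequence in these differences was not tested.

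**Figure D5:**
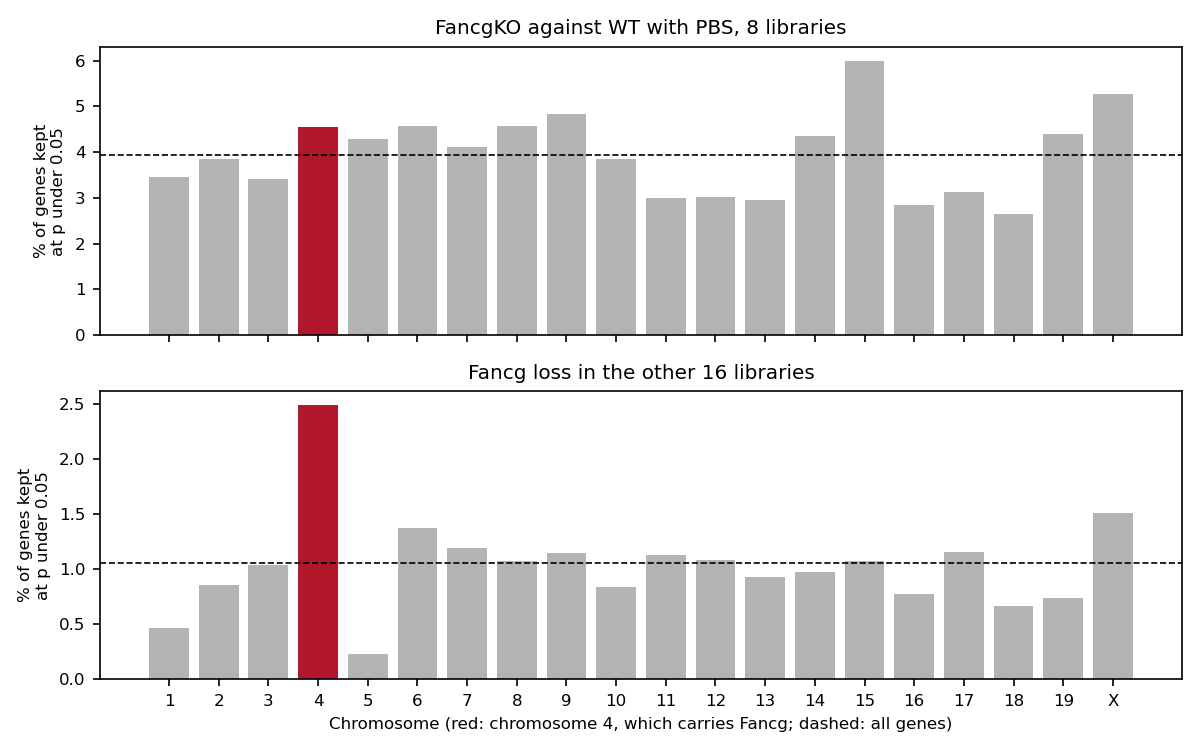
Share of kept genes at an unadjusted limma p under 0.05 (y axis, percent) on each chromosome, for FancgKO against WT with PBS (top) and for Fancg loss in the other 16 libraries (bottom); chromosome 4, which carries Fancg, is red and the dashed line is the share over all genes (3.94% and 1.05%). Chromosome 4 has the highest bar in the lower panel, at 2.49%, and not in the upper one, at 4.56%.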

How the data were processed

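Values of FancgKO and WT libraries with PBS were taken from a deposited table of normalized counts (a signal per gene and library), so called by the authors in the name of the table. STAR and mm10 are listed per the submitters' processing notes; the counter, its use of strand, the normalization tool and molecular identifiers are not given in the sources used here. Whole reads were recovered for 100% of values (tolerance 1e-06) and tested with edgeR 4.0.16 and DESeq2 1.42.0, which called 0 genes each.

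All 24 libraries entered 1 model of log2 values (pseudocount 1) with 8 groups, fitted by limma 3.58.1 under R 4.3.3 with its trend option and Benjamini-Hochberg adjustment over 12628 genes. Same-numbered FancgKO and WT libraries correlated, after removal of group means, at 0.349, 0.528 and 0.218, and the numbers were treated as pairs. Differently numbered libraries are not given for comparison. Fits were tested on simulated data. Alternatives changed the scaling, filter, pseudocount, trend, weights, depth, block, covariates and the libraries included. Tables and figures used python 3.11.15, pandas 2.3.3 and matplotlib 3.10.9.

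The members, the 36 lists (806 of 922 members kept), the tests and the alternatives were chosen with earlier results of these data known. Named genes are the 12 smallest p-values per direction and up to 4 per list, each with a mean of at least 50, and, at any level, genes called with or without the block and a fixed set. Zmat3, Gtse1, Cd34, Faap20, Gata1, Fam219a, Epha7 and Smap2 lie outside this rule and were chosen after their values were seen. Selp, Pvt1, Cdkn1a, Csf2rb, Fancc, Gfi1, Lpar6, Mkl2, Rad54l, Satb1, Sox4, Timeless, Cd34 and C530008M17Rik share exonic bases with another gene, so their counts are uncertain.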

Additional observations from a re-analysis of the deposited data

Results flagged for a closer look

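Over the 61 named genes, 122 groups of 4 libraries were examined for a library far from the other 3, and 4 were found, where chance flags about 1 in 20 groups. Mdm4 was 758 in WT replicate 6, against 938 to 955 in the other WT libraries. Gimap6 was 96.4 in FancgKO replicate 6, against 163 to 169 in the other FancgKO libraries. Rfwd3 was 101 in WT replicate 8, against 202 to 221 in the others, and its difference rests in part on that library. Xist was 24.8 in WT replicate 6, against 0 to 3.34 in the other WT libraries.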

How the results depend on the processing

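Of 2126 values of the 61 named genes under the alternatives, 2103 kept their direction and their side of the threshold, 14 passed it only in an alternative and 9 changed sign, in 6 genes. Leaving Xist aside, 19 of 60 named genes moved by over 1.5 times without the Xist-high libraries and 20 with some single library left out. Without the Xist-high libraries the log2 difference of Gtse1 was -0.38, of Rps27l -0.0089, of Satb1 0.0091 and of Xist -1.17, and with Xist as a covariate that of Gtse1 was -0.034. With the replicate block and 1 library left out, Cdkn1a was -0.11 without FancgKO replicate 6 and -0.13 without WT replicate 8, Rps27l was -0.032 without FancgKO replicate 7 and Ly6a was 0.13 without FancgKO replicate 6.

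The count of genes called between FancgKO and WT, 0 in limma, became 4 with the replicate block, 1 with the name ending as a covariate (Selp), 1 in edgeR with the replicate block (Xist) and 0 to 1 with single libraries left out (1 without FancgKO replicate 2). With the block and 1 library left out it was 0 to 12, namely 9, 4 and 12 without FancgKO replicates 2, 4 and 6 and 1 without WT replicate 8. In the other 16 libraries the count of 2 became 0 without the filter on low values, 0 without the trend, 0 with reads thinned to the smallest library, 1 with quantile scaling, 1 with array weights, 4 with the replicate block, 4 with the block and Xist, 5 in edgeR with the block, 0 to 2 with single libraries left out and 4 with the block and any 1 of the 8 libraries left out. The count for the difference between these effects, 0, became 1 without FancgKO replicate 2, with or without the block, and 1 with the block without FancgKO replicate 6, in a range of 0 to 1.

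Genes without overlap between groups, 231 in all, became 355 without the filter and 127 with a filter of 50, which change the genes tested. Genes at an unadjusted p under 0.05 numbered 6 to 11 within 10 Mb of Fancg and 27 to 53 on chromosome 4 with single libraries left out, and 11 and 75 with the replicate block. The share over all genes is not given for the fits with single libraries left out. Of 468 list medians 75 moved by more than the spread of the pairs. The block fit in edgeR and the block fits with a library left out were chosen after seeing the data, and the cause of these changes was not tested. FancgKO libraries held a median of 1474587 reads and WT libraries 2196949, and this depth limits genes such as Eda2r and Smim8.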
